A study of Homo sapiens with 4 samples.

Results

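To describe heme metabolism after knockdown of GATA1, 9 genes were examined: ALAS1, ALAS2, ALAD, UROS, UROD, CPOX, PPOX, FECH and HMOX1. A gene was included through every non-control probe that carries its symbol on the array, which gave 13 of 41000 non-control probes and 9 of 30499 gene names. The first 8 genes encode enzymes of heme synthesis, although not every enzyme of that pathway is among them. HMOX1 encodes heme oxygenase 1, which breaks heme down, so the 9 genes are called heme genes here and not synthesis enzymes. Probes of a gene were kept apart.

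Cells of Meg-01, an established line of human megakaryoblasts, were infected with GATA1 shRNA lentivirus and selected with puromycin. From isolated colonies 2 stable clones were expanded, GATA1 5-13 and GATA1 4-14. Whatever else sets a colony apart from the pool is therefore part of every value. Whether the clones carry the same shRNA is not stated, so a difference between them by shRNA or by colony cannot be told apart. As control served GATA1 Neg, a pool of Meg-01 cells, not cloned, that carry an shRNA without a close match among human genes. Clones and control thus shared the line, infection with an shRNA lentivirus and the culture medium. On each of the 4 arrays, 1 clone's RNA competed with GATA1 Neg RNA on the same spots, and the dyes were exchanged between the 2 arrays of a clone. The sample labels give Meg-01, while the text on RNA extraction speaks of CMK clones. Nothing in the labels says that the 2 arrays of a clone came from separate cultures, so they were averaged and each clone counted as 1 replicate. Whether the 4 arrays held 1 preparation of GATA1 Neg RNA is not stated either.

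Heme synthesis begins in the mitochondrion, continues in the cytosol and ends in the mitochondrion again. The first step, the joining of glycine and succinyl-CoA to 5-aminolevulinate, is catalysed by ALAS1 in most cells and by ALAS2 in erythroid cells, and it sets the pace of the pathway. ALAD, UROS and UROD work in the cytosol on the way from aminolevulinate to coproporphyrinogen, CPOX and PPOX turn this into protoporphyrin, and FECH inserts iron. GATA1 is a transcription factor of erythroid cells and megakaryocytes, and ALAS2 is among its well-known targets in red cell precursors. Megakaryocytes share a precursor with red cells, and megakaryoblastic lines often express erythroid genes as well.

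The DNA upstream of these genes is shown because GATA1 recognises the core letters GATA with a flanking base on both sides. RefSeq windows of 250 bases that end just before an annotated start (GRCh38.p14) were found for 7 of the 9 genes. They were searched on both strands for AGATAA and for AGATAG, and likewise for TGATAA and for TGATAG, and no matches overlapped in the windows of these genes. At least 1 of these words was present in 4 of the 9 windows of the heme genes (44.4%), beside 7840 of 35116 windows of all genes (22.3%). The 4 windows printed here are those of ALAS2 and CPOX, 2 of the genes with a match, and of UROD and FECH, whose ratios had the same sign on all 4 arrays. Each is written 5′ to 3′ on the strand of its gene, with the matching letters in capitals. The windows lie at chrX:55030978-55031227 (minus strand) for ALAS2, chr3:98593612-98593861 (minus strand) for CPOX, chr1:45012004-45012253 (plus strand) for UROD and chr18:57586703-57586952 (minus strand) for FECH.
ALAS2: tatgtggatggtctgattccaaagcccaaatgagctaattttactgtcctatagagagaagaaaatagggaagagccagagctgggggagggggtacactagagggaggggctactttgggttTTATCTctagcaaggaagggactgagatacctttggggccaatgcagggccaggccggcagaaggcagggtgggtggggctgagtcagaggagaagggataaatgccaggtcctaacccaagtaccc
CPOX: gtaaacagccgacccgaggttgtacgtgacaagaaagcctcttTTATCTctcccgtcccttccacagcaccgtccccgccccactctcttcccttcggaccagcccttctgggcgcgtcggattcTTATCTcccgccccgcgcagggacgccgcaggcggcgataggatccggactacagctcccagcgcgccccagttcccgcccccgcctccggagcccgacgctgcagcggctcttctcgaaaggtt
UROD: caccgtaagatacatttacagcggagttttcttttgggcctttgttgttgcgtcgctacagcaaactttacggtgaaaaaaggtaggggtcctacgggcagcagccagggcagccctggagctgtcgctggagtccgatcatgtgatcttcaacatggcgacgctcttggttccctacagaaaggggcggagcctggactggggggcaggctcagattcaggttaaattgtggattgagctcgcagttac
FECH: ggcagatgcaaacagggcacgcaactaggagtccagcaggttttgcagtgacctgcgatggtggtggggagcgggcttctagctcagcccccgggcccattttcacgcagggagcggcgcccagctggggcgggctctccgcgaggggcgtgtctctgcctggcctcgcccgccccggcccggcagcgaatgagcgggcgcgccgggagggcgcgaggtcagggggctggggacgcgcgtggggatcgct
In the ALAS2 window TTATCT, which is AGATAA on the other strand, begins 127 bases before the start. The CPOX window holds the same word at 207 and at 125 bases before the start. No match was found in the windows of UROD, FECH and ALAS1. ALAD and PPOX each have 2 annotated starts, and in both genes 1 of the 2 windows holds 1 match. Their windows are not printed, although ALAD A_23_P217114 also had the same sign on all 4 arrays. A match is a run of letters and not a measured binding site.

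The targeted gene read below GATA1 Neg on every array. The log2 ratio of knockdown over GATA1 Neg for the GATA1 probe, A_24_P374244, was -0.21 and -0.34 on the arrays of GATA1 5-13 and -0.43 and -0.58 on those of GATA1 4-14. By this probe, that corresponds to 82.7% of the GATA1 Neg level in GATA1 5-13 and 70.6% in GATA1 4-14. Values were lower on both arrays of GATA1 4-14 than on those of GATA1 5-13. These percentages rest on 1 probe with 1 spot per array. The paper also reported lower GATA1 transcript by real-time RT-PCR and lower protein in both clones, and its values were not compared here. The mean was -0.39 ± 0.16 (SD, n = 2 clones; adjusted p = 0.605, limma). Between 61.6% and 66.4% of spots per channel were well above background, and no spot was saturated. Of the megakaryocyte markers, GP5, PF4 and VWF were at background on every array, while probes for ITGA2B, GP1BA, GP9 and ITGB3 were well above it in both RNAs. Of 10 probes for monocyte, T cell and B cell markers, 3 were well above background on all 4 arrays in at least 1 RNA.

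All 13 heme gene probes were well above background in both RNAs on 4 of 4 arrays. The mean over the clones was tested against 0 with limma, and 0 of the 13 probes had an adjusted p under 0.05, as did 0 of the 40974 probes on the array that were tested (0%). Before adjustment, 1 of the 13 probes was lower at p under 0.05, that of UROD (7.69%, against 4.04% of all probes), and 1 was higher, that of FECH (7.69%, against 3.38%). With 1 probe in each direction, these shares cannot be told from those of the whole array. The log2 ratio was below 0 on all 4 arrays for 2 probes, UROD and ALAD A_23_P217114 (15.4%, against 13.4% of all probes), and above 0 on all 4 for 2 probes, FECH and HMOX1 (15.4%, against 12.8%). An error-weighted mean of the 4 arrays also called 0 of the 13 probes after adjustment and 2 before it.

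**Figure D1:**
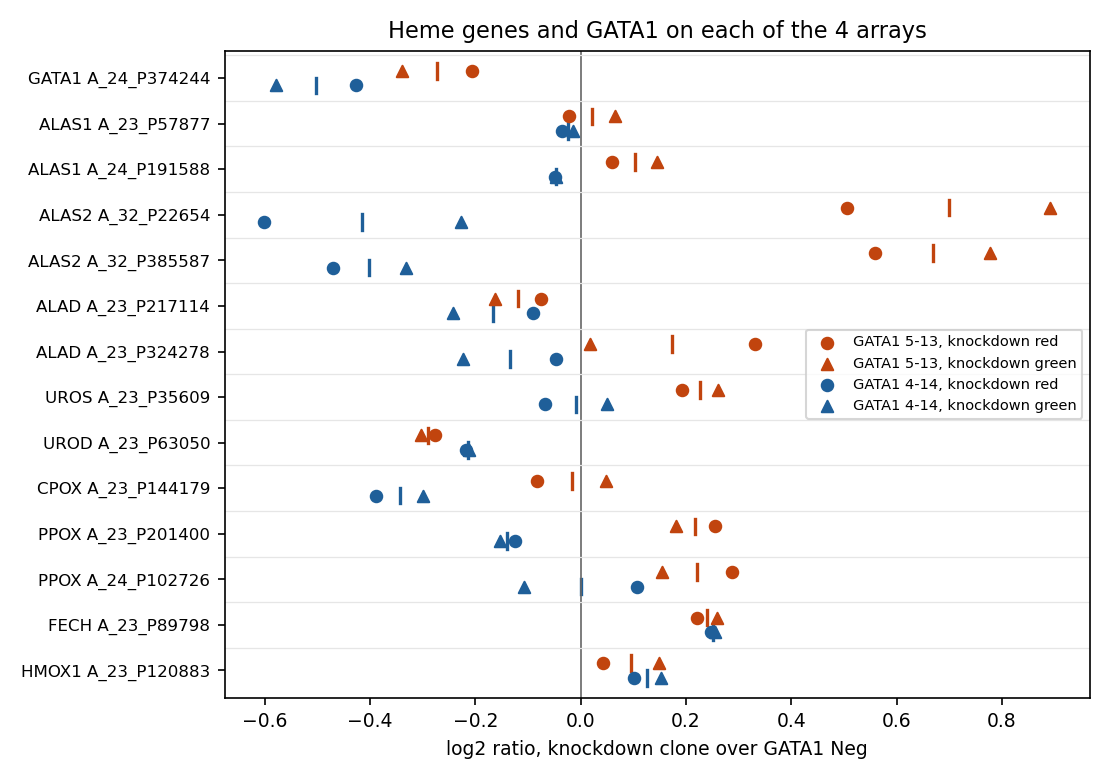
The log2 ratio of knockdown over GATA1 Neg (x axis) for GATA1 and the 13 heme gene probes (rows) on each of the 4 arrays. Circles are arrays with the knockdown RNA in red, triangles those with it in green, and short vertical lines are clone means. The points of UROD lie between -0.30 and -0.21 and those of FECH between 0.22 and 0.26, whereas the ALAS2 points of the 2 clones lie on opposite sides of 0.

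Probe positions are given on hg18, the build of the scanner files, and exon or UTR annotation of that build was not used here. ALAS2, the erythroid enzyme of the first step, separated the clones most among the heme genes. Probe A_32_P22654 read 0.51 and 0.89 (log2 ratio) with GATA1 5-13, against -0.60 and -0.23 with GATA1 4-14. For probe A_32_P385587 the values were 0.56 and 0.78 in GATA1 5-13, and -0.47 and -0.33 in GATA1 4-14. Every array of GATA1 5-13 was above GATA1 Neg and every array of GATA1 4-14 below it, as for 8.03% of all probes. The 2 probes lie on the minus strand at chrX:55052213-55052269 and chrX:55052230-55052289 (hg18) and overlap, so they read nearly the same stretch of the transcript and are not independent. On the first probe ALAS2 stood at 162% of GATA1 Neg in GATA1 5-13 and at 75.0% in GATA1 4-14. On the second probe the values were 159% and 75.7%. Since the clones lay on opposite sides of 0, the mean over both was small beside its spread, 0.14 ± 0.79 (SD, n = 2 clones; adjusted p = 0.936, limma) for the first probe and 0.13 ± 0.76 (adjusted p = 0.938) for the second. A difference between the clones as large as that of the first probe, 1.11 on the log2 scale, was exceeded by 0.949% of all probes, and that of the second, 1.07, by 1.03%. With 1 replicate per clone the difference has no test. It ranged from 1.05 to 1.17 for the first probe and from 1.01 to 1.13 for the second over the ways of making the ratios that were tried.

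The intensities of each dye come from the same spots as the ratios. Within an array they repeat the ALAS2 ratio, so they show its level but are no second measurement. On the log2 intensity scale, after normalization between arrays, probe A_32_P22654 read 12.02, 11.87, 11.97 and 11.78 in the GATA1 Neg RNA of the 4 arrays. The mean was 11.91 ± 0.11 (SD, n = 4 arrays of 1 control pool). The probe read 12.53 and 12.76 in GATA1 5-13, above all GATA1 Neg values, and 11.37 and 11.55 in GATA1 4-14, below all of them. The spread over GATA1 Neg is that of arrays of 1 control pool and cannot be read as that of cultures or colonies. In RNA from a whole culture, fewer cells that express a gene and less RNA of it per cell cannot be told apart.

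**Figure D2:**
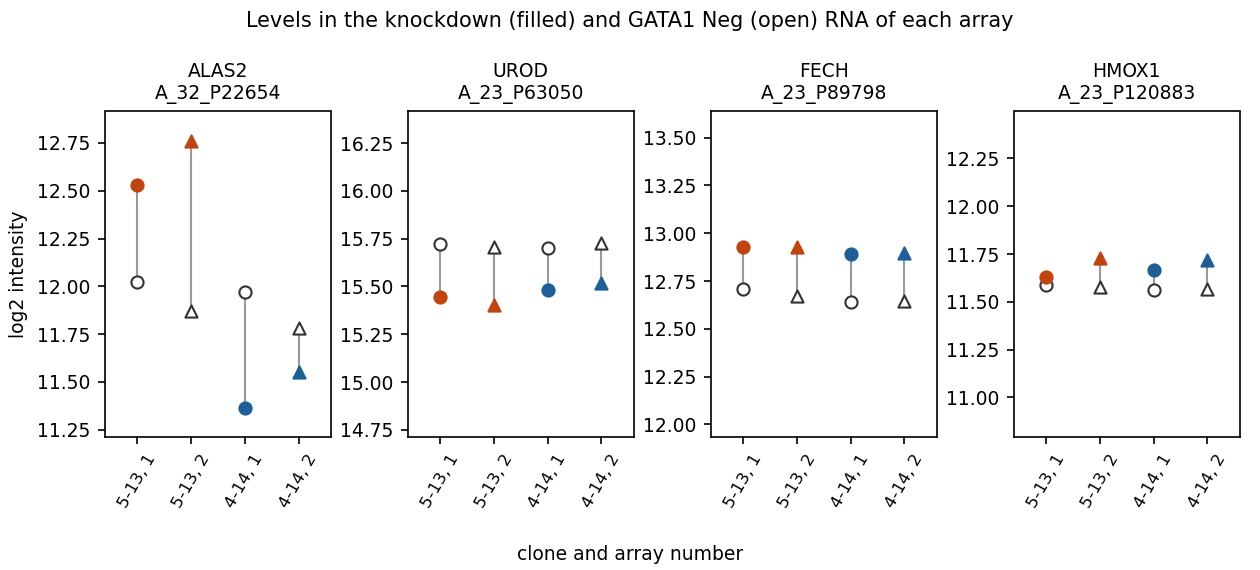
Log2 intensity (y axis, each panel spanning the same range of log2 units around its own centre) of 4 heme gene probes in the knockdown RNA (filled, red for GATA1 5-13 and blue for GATA1 4-14) and in the GATA1 Neg RNA (open) of each array (x axis; clone, then array number). Circles and triangles are the dye orientations, and lines join the RNAs of 1 array. ALAS2 lies above the control in GATA1 5-13 and below it in GATA1 4-14, whereas UROD is below it and FECH above it on all 4 arrays. Levels are not comparable between panels, which show different probes.

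ALAS1, the enzyme of the same step in most cells, differed little from GATA1 Neg. Probe A_24_P191588 (chr3:52221317-52221376, plus strand) gave 0.06 and 0.15 in GATA1 5-13 and -0.05 on both arrays of GATA1 4-14, and its mean was 0.03 ± 0.11 (SD, n = 2 clones; adjusted p = 0.943, limma). Probe A_23_P57877 (chr3:52214925-52214984, plus strand) gave -0.02 and 0.07 in GATA1 5-13, and -0.03 and -0.01 in GATA1 4-14. Its mean was -0.00 with a 95% confidence interval from limma of -0.17 to 0.17. The interval rests on 2 clones and 1 control pool, so it cannot be read as covering variation among cultures. On the first array of GATA1 5-13 the spot of this probe was unusually bright in both dyes. The interval of the other ALAS1 probe ran from -0.19 to 0.24. Isoenzymes of 1 step thus differed in how far the clones parted, 0.15 and 0.05 on the log2 scale for the ALAS1 probes against 1.11 and 1.07 for those of ALAS2, a comparison with no test.

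ALAD condenses 2 aminolevulinate molecules to porphobilinogen, and its probes did not give the same picture. Probe A_23_P217114 (chr9:115188995-115189054, minus strand) was below 0 on every array, at -0.08, -0.16, -0.09 and -0.24 in the order GATA1 5-13 and then GATA1 4-14. Its mean was -0.14 ± 0.03 (SD, n = 2 clones; adjusted p = 0.683, limma). Probe A_23_P324278, whose hg18 position spans 636 bases from 115191879 to 115192514 and so skips part of the genomic sequence, was at 0.33 and 0.02 in GATA1 5-13 and at -0.05 and -0.22 in GATA1 4-14. This probe was higher in 1 clone and lower in the other, while the first was lower in both. The 2 arrays of GATA1 5-13, which also differ in dye orientation, lay 0.31 apart on this probe.

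UROS and UROD carry out the cytosolic steps that follow. UROS closes the ring to uroporphyrinogen III, and UROD decarboxylates the acetate side chains of that ring. UROS, read by A_23_P35609 (chr10:127476680-127486006, minus strand, longer than the probe itself), was at 0.19 and 0.26 in GATA1 5-13 and at -0.07 and 0.05 in GATA1 4-14. It stood above GATA1 Neg on both arrays of GATA1 5-13 and on either side of it in GATA1 4-14, and the mean over the clones was 0.11 ± 0.17 (SD, n = 2; limma's adjusted p = 0.79). UROD, read by A_23_P63050, was at -0.28 and -0.30 in GATA1 5-13 and at -0.22 and -0.21 in GATA1 4-14. All 4 arrays were low, and the clones were at 81.8% and 86.2% of GATA1 Neg. Its mean was -0.25 ± 0.05 (SD, n = 2 clones; 95% confidence interval -0.43 to -0.07; adjusted p = 0.613, limma). On the log2 intensity scale UROD read from 15.70 to 15.73 in GATA1 Neg, over arrays of 1 control pool. It read from 15.40 to 15.52 in the clones. The UROD probe maps to chr1:45253242-45253631 (plus strand), 390 bases that are longer than the probe itself and so include a gap in its match.

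CPOX, which makes protoporphyrinogen from coproporphyrinogen, was low in GATA1 4-14. Its probe A_23_P144179 (chr3:99782978-99783037, minus strand) was at -0.39 and -0.30 there, 78.8% of GATA1 Neg, and at -0.08 and 0.05 in GATA1 5-13, 98.8% of GATA1 Neg. The mean was -0.18 ± 0.23 (SD, n = 2 clones; adjusted p = 0.744, limma), and the clones' difference of 0.33 was exceeded by 13.7% of all probes.

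PPOX oxidizes protoporphyrinogen to protoporphyrin and was read by 2 probes on chromosome 1. Probe A_23_P201400 (chr1:159407468-159407527, plus strand) was at 0.25 and 0.18 in GATA1 5-13 and at -0.13 and -0.15 in GATA1 4-14. Probe A_24_P102726 (chr1:159403528-159403587, plus strand) was at 0.29 and 0.15 in GATA1 5-13, and at 0.11 and -0.11 in GATA1 4-14. Both probes were above GATA1 Neg in GATA1 5-13, at 116% and 117%, while only the first was below it on both arrays of GATA1 4-14. Their means were 0.04 ± 0.25 and 0.11 ± 0.16 (SD, n = 2 clones; adjusted p = 0.953 and 0.78, limma).

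FECH, the ferrochelatase that completes heme by inserting iron into protoporphyrin, was the heme gene with the closest agreement between clones. Its probe A_23_P89798 (chr18:53368764-53368823, minus strand) was at 0.22 and 0.26 in GATA1 5-13 and at 0.25 on both arrays of GATA1 4-14. FECH was therefore high on all 4 arrays, at 118% and 119% of GATA1 Neg in the clones. The mean was 0.25 ± 0.01 (SD, n = 2 clones; 95% confidence interval 0.08 to 0.41; adjusted p = 0.605, limma). Its log2 intensity was 12.64 to 12.71 in GATA1 Neg and 12.89 to 12.93 in the clones. The difference between the clones, 0.01 on the log2 scale, was exceeded by 93.4% of all probes. Among the heme genes UROD and FECH thus lay at a like distance from 0 on opposite sides, each with nearly the same value in both clones, and neither passed the adjusted threshold.

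HMOX1, the stress-induced enzyme that opens the heme ring, was slightly above GATA1 Neg on all arrays. Its probe A_23_P120883 (chr22:34120122-34120181, plus strand) was at 0.04 and 0.15 in GATA1 5-13 and at 0.10 and 0.15 in GATA1 4-14, and averaged 0.11 ± 0.02 over the clones (SD, n = 2; limma's adjusted p = 0.716). This probe is printed 10 times on each array. The SD over its 10 spots was between 0.025 and 0.046, which is below the gap of 0.11 between the 2 arrays of GATA1 5-13. The gap between the 2 arrays of GATA1 4-14 was 0.05. HMOX1 was thus above GATA1 Neg by an amount close to the larger of these gaps.

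**Figure D3:**
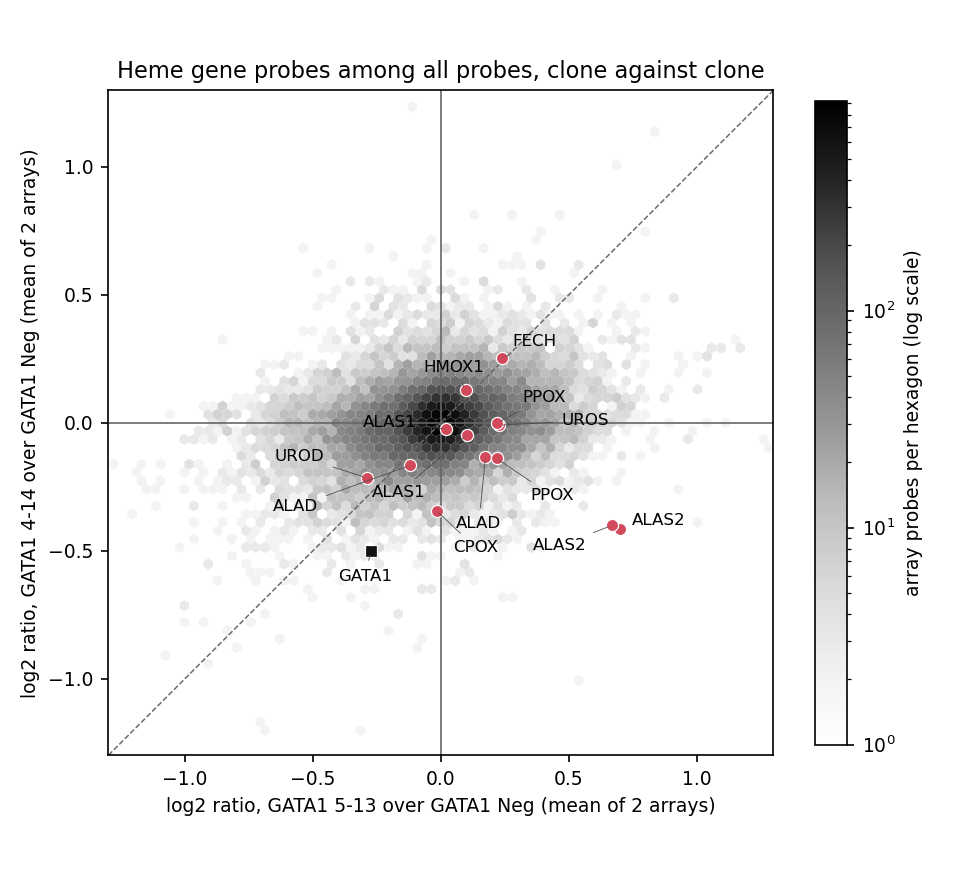
Log2 ratio in GATA1 5-13 (x axis) against that in GATA1 4-14 (y axis), each the mean of 2 arrays, for the 13 heme gene probes (red circles), GATA1 (black square) and all probes (grey hexagons, shaded by the number of probes on a log scale). The dashed line marks equal values, and 368 of 40974 probes lie outside the axes. Most heme gene probes lie below the line, UROD, FECH and HMOX1 lie above it by 0.08 or less, and both ALAS2 probes stand at the lower right edge of the cloud.

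Most but not all heme gene probes read higher in GATA1 5-13, with ALAS1, ALAS2, ALAD and PPOX each counted by 2 probes. Some differences were small, 0.05 for ALAS1 A_23_P57877 and for ALAD A_23_P217114. The log2 ratio was higher in GATA1 5-13 than in GATA1 4-14 for 10 of the 13 probes (76.9%, against 49.2% of all probes), the exceptions being UROD, FECH and HMOX1. It was above 0 on both arrays of GATA1 5-13 and below 0 on both arrays of GATA1 4-14 for 5 probes of 4 genes (38.5%, against 8.03% of all probes): both ALAS2 probes, ALAS1 A_24_P191588, ALAD A_23_P324278 and PPOX A_23_P201400. The reverse pattern was found in 0 of 13 probes (against 7.86% of all probes). The count of 5 depends on the normalization, since with median centring in place of loess only the 2 overlapping ALAS2 probes kept it. It was 5 or 6 under the other ways of making the ratios. Over the 13 probes the median log2 ratio came to 0.17 for GATA1 5-13 and -0.14 for GATA1 4-14, and to 0.04 for the mean of the clones, where the medians over all probes lay within 0.01 of 0. The SD over the probes was 0.27 in GATA1 5-13 and 0.20 in GATA1 4-14, beside 0.29 and 0.20 over all probes. All probes include dim ones, while the heme gene probes were well above background, so these SDs are not a like comparison. Probes of 1 gene share a transcript, and these are descriptions of 2 clones with no test.

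The remaining genes of heme and iron metabolism were read from 5 lists. A sixth held erythroid genes, with transcription factors such as GATA2 and LMO2 among them. No probe of any list passed the adjusted threshold in limma. Without adjustment, 0 of 15 probes for substrates and cofactors were lower and 0 higher, and of 21 for iron uptake and storage 0 were lower and 1 higher. Of 16 for iron-sulphur clusters 0 were lower and 0 higher, of 14 for porphyrin and heme transport 2 were lower and 2 higher, and of 16 for heme breakdown and sensing 2 were lower and 1 higher. Of the 25 erythroid probes 6 were lower and 0 higher. The 6 were 2 probes of GATA2, a transcription factor and not an erythroid marker, 2 of EPOR, and 1 each of ERAF and HBE1. In knockdown RNA, ERAF was well above background on 1 array and this HBE1 probe on 0. Among all probes the same rule took 4.04% as lower and 3.38% as higher. The erythroid list was the one with more than 2 probes in a direction, with GATA2 and the dim probes of ERAF and HBE1 counted.

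**Figure D4:**
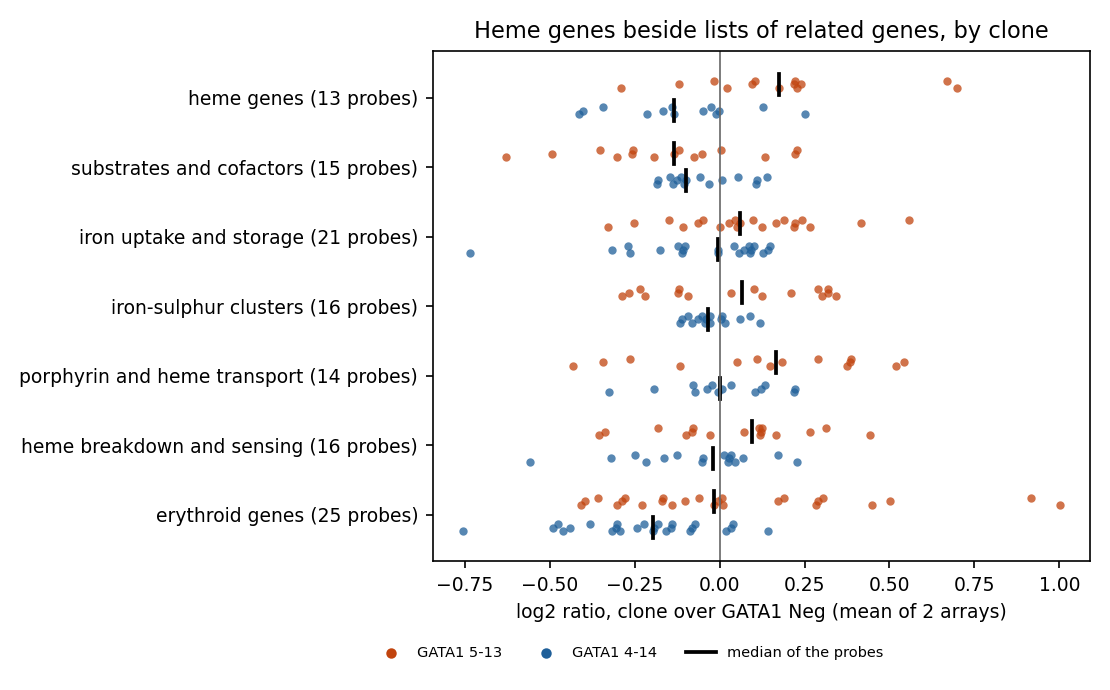
Log2 ratio over GATA1 Neg (x axis, mean of 2 arrays) for each probe of the heme genes and of 6 lists of related genes (rows), in GATA1 5-13 (red, upper line of a row) and GATA1 4-14 (blue, lower line). Vertical bars are medians over the probes. The medians of the heme genes are 0.17 and -0.14, those for substrates and cofactors are below 0 in both clones, and the erythroid median is -0.02 in GATA1 5-13 and -0.20 in GATA1 4-14.

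For substrates and cofactors the list's median stood at -0.13 for GATA1 5-13 and -0.10 for GATA1 4-14, and 7 of 15 probes were below 0 on all 4 arrays (against 13.4% of all probes), several of them repeat probes of SLC25A37 and SHMT2. The lowest values were those of SLC25A37, which encodes mitoferrin 1, the importer that brings iron into the mitochondria of red cell precursors. Its probe A_23_P216004 was at -0.63 in GATA1 5-13 and -0.18 in GATA1 4-14 (adjusted p = 0.681, limma), A_24_P201089 at -0.49 and -0.03, and A_23_P431734 at -0.35 and -0.14. Its remaining probe, A_24_P64100, was at -0.12 and -0.11, so its probes disagree on how far the clones differed.

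In the iron list, ACO1, the cytosolic aconitase that doubles as an iron sensor, was above 0 on all arrays, at 0.24 and 0.14 in the clones on A_23_P9416 and at 0.19 and 0.15 on A_23_P9415. SLC11A2, an iron transporter, was below 0 on A_24_P913210 (-0.33 and -0.11), but its probe A_24_P381494 was at 0.42 in GATA1 5-13 and -0.26 in GATA1 4-14, so the probes of this gene disagree. The pattern of ALAS2, above 0 on both arrays of GATA1 5-13 and below 0 on both of GATA1 4-14, was shared by 5 of the 21 iron probes (against 8.03% of all probes): TFRC, SLC40A1, that probe of SLC11A2 and both probes of STEAP3. These were named after their values were seen. TFRC encodes the transferrin receptor, through which cells take up iron, and its probe A_23_P212617 was at 0.54 and 0.57 on the arrays of GATA1 5-13 and at -0.38 and -0.26 on those of GATA1 4-14. SLC40A1, the iron exporter ferroportin, was at 0.27 in GATA1 5-13 and -0.73 in GATA1 4-14.

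Of the genes that build iron-sulphur clusters, GLRX5 was at 0.32 and 0.09 in the clones, LYRM4 at -0.27 and -0.12 on A_23_P254997, and FDXR at -0.23 and -0.11. Their adjusted p values were 0.695, 0.681 and 0.681 in limma. The list's medians were 0.07 in GATA1 5-13 and -0.03 in GATA1 4-14.

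Among transporters, ABCB10, a mitochondrial transporter linked to heme synthesis, was above 0 on all 4 arrays. Its probes A_23_P201918 and A_32_P23624 were at 0.52 and 0.39 in GATA1 5-13, and both at 0.22 in GATA1 4-14, and their adjusted p values in limma were 0.651 and 0.623. ABCG2, which exports porphyrins from the cell, was at -0.43 and -0.33 (adjusted p = 0.563, limma). The medians of this list were 0.17 in GATA1 5-13 and 0.00 in GATA1 4-14.

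The breakdown list holds the regulators and partners of HMOX1. BACH1, a repressor of HMOX1 that heme releases from DNA, was at -0.34 in GATA1 5-13 and -0.56 in GATA1 4-14 on A_23_P211047 (mean -0.45 ± 0.16, SD, n = 2 clones; adjusted p = 0.576, limma). Its other probe, A_24_P299034, gave smaller values of -0.08 and -0.22. NFE2L2, an activator of HMOX1, was at 0.44 and 0.17 on A_23_P5761, but at -0.18 and 0.23 on A_24_P936444, and so gave no single direction. BLVRA, which reduces the biliverdin that HMOX1 produces, was at -0.36 and -0.25 (adjusted p = 0.592, limma).

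The erythroid list, whose median was -0.02 in GATA1 5-13 and -0.20 in GATA1 4-14, bears on ALAS2 as a gene of that lineage. LMO2, a partner of GATA1 in its complexes, was at -0.17 and -0.76, and GATA2 on A_23_P110022 at -0.41 and -0.30 in the clones. The HBE1 probe A_23_P47665, for embryonic epsilon-globin, was on no array well above background with knockdown RNA. The mean signal of this probe was at least 1.25-fold lower there than in GATA1 Neg (adjusted p = 0.548, limma). For this bound the lowest signal well above background stood for dimmer readings, on 3 of 4 arrays. The other HBE1 probe, A_24_P355568, was well above background in both RNAs on 4 of 4 arrays. It was at 0.50 in GATA1 5-13 and -0.44 in GATA1 4-14, so the HBE1 probes disagree in GATA1 5-13. The pattern of ALAS2 was found in 6 of the 25 erythroid probes (against 8.03% of all probes), among them those of EPB42, HBB, HBZ and this second probe of HBE1, and the reverse in 1 (against 7.86%), TAL1 A_24_P345314, all named after their values were seen. Summed over the 25 probes and given in units of 1000, the intensity was 580 on both arrays of GATA1 5-13, 345 to 476 in GATA1 4-14 and 331 to 538 in GATA1 Neg. Bright probes dominate such a sum, and the same control pool spans much of its range. The part of the erythroid genes in the ALAS2 values was not tested.

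Markers of other lineages were read in the same way, and 0 of them passed the adjusted threshold in limma. Of 4 mast cell probes, 3 were below 0 on all 4 arrays (against 13.4% of all probes) and 1 above (against 12.8%). MS4A2, a subunit of the IgE receptor, stood at 45.0% of GATA1 Neg in GATA1 5-13 and 46.0% in GATA1 4-14 (adjusted p = 0.330, limma), KIT, the receptor for stem cell factor, at 81.7% and 48.0%, and CPA3, a mast cell protease, at 163% and 365%. In units of 1000, the summed intensity of the 4 probes was 5.50 to 5.70 in GATA1 5-13, 7.53 to 7.58 in GATA1 4-14 and 5.76 to 5.90 in GATA1 Neg. Of 15 megakaryocyte probes, 5 were below 0 on all 4 arrays (against 13.4% of all probes) and 0 above (against 12.8%). Repeat probes of ITGA2B were among the 5, and only 7 of the 15 were well above background on all 4 arrays in at least 1 RNA. The lowest was GP1BA A_23_P152926, a platelet glycoprotein chain, at 31.2% in GATA1 5-13 and 89.4% in GATA1 4-14. Summed over the 15 probes, the intensity was 12.8 to 13.2 in GATA1 5-13, 15.5 to 15.8 in GATA1 4-14 and 16.9 to 17.9 in GATA1 Neg. The part of these cell markers in the heme gene values was not tested.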

How the data were processed

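The authors deposited the output of Agilent Feature Extraction 9.5.3.1 for 4 two-colour arrays on 1 slide: spot and local background intensities, neither corrected nor normalized, and that program's log10 ratios, made from background-subtracted and dye-normalized signals. The series-wide log10 table that the authors deposited holds the same ratios turned to knockdown over control (largest difference 4.97e-06). From the intensities, limma 3.58.1 in R 4.3.3 gave log2 ratios (normexp with an offset of 50, loess within arrays); control and outlier spots were then dropped, repeated spots averaged, and dye swaps turned and averaged per clone. The moderated test, two-sided, asked whether the mean of the clones differed from 0, with Benjamini-Hochberg adjustment over 40974 probes, called at 0.05. Per-dye levels were additionally scaled by Aquantile.

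The 2 clones are the only replicates. The p-values set the mean of the clones against a spread between clones that limma moderates over all probes. The labels do not say whether GATA1 Neg RNA came from separate cultures, so its spread across cultures is not known. The number of clones limits the precision. Scripts were tested on simulated data. The genes and lists were chosen with earlier results of these data known. Named were all heme gene probes, GATA1 and, per list of heme-related or erythroid genes, the 3 probes with the largest mean change of 1 sign on all 4 arrays that were well above background in the brighter RNA; other probes, among them further probes of these genes and the cell type markers, were chosen after their values were seen. The alternatives tried were uncorrected signals, Feature Extraction's own ratios or the series-wide ones, median centring or Aquantile, dim probes filtered, outliers kept, an intensity trend, the 4 arrays as separate values (with a replicate block or none), error weighting, and each array or clone left out. Binding data and Rosetta Resolver output were not analysed here.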

Additional observations from a re-analysis of the deposited data

Results flagged for a closer look

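In 5 probes the clones lay on opposite sides of GATA1 Neg on every array, above 0 in GATA1 5-13 and below 0 in GATA1 4-14, and the difference between the clones was not tested, since each clone is 1 replicate. On the log2 scale GATA1 5-13 exceeded GATA1 4-14 by 1.11 for ALAS2 A_32_P22654 and by 1.07 for ALAS2 A_32_P385587, by 0.36 for PPOX A_23_P201400, by 0.31 for ALAD A_23_P324278 and by 0.15 for ALAS1 A_24_P191588. The gap between the 2 arrays of a clone, at most 0.39 for ALAS2, was smaller than the difference between clones for both ALAS2 probes, while for ALAD A_23_P324278 it reached 0.31 in GATA1 5-13.

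In the GATA1 Neg RNA, ALAS1 A_23_P57877 lay far from the other arrays on 1 of 4, with a gap of 0.917 of the whole range. Its log2 intensity was 9.96 on the first array of GATA1 5-13 and 8.94 to 9.02 on the other 3. The knockdown RNA read 9.94 on that array and 8.90 to 9.05 on the others, so both dyes were bright on the same spot and the log2 ratio there was -0.02. Of 14 probes examined this way, GATA1 included, 1 was marked, and chance marks about 1 in 20 such groups.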

How the results depend on the processing

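UROD below and FECH above GATA1 Neg kept their direction under the 11 of 17 alternatives that alter their ratio (the other 6 change only the test or other probes), from -0.29 to -0.22 and from 0.24 to 0.28, as did HMOX1 (0.08 to 0.14), CPOX (-0.34 to -0.02), ALAD A_23_P217114 (-0.18 to -0.10) and GATA1 (-0.50 to -0.27). The adjusted call depends on what counts as a replicate. With the 4 arrays as 4 values and no replicate block, 2 of the 13 heme gene probes passed (UROD, adjusted p = 0.040, and FECH, adjusted p = 0.036, limma), and so did GATA1 (0.049). With a replicate block none did, and the unadjusted counts were 2 lower and 2 higher in both of these fits. The replicate number marks the dye orientation, and arrays with the same number correlated at 0.387 and 0.409 across clones, against 0.171 and 0.216 for unlike numbers. Over all probes, 736 fell and 504 rose past the adjusted threshold without the block, 167 and 102 with it, and 1768 and 1647 with the error-weighted mean, under which GATA1 also passed (0.003); limma over the clones gave 0, and the other settings 0 or 1.

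Without background correction the unadjusted counts were 2 lower and 2 higher, 2 were higher with Feature Extraction's ratios and with the series-wide values, and with an intensity trend 0 were lower. Leaving out an array changed none of the counts (0 past adjustment, 1 lower and 1 higher), and the median lay between -0.14 and 0.17 with an array or a clone left out.

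Values near 0 changed sign. ALAS1 A_23_P57877 was at 0.0077 without background correction, 0.0087 with median centring, 0.0184 with Feature Extraction's ratios and with the series-wide table, and 0.0189 with the error-weighted mean. With an array or a clone left out it ranged from -0.025 to 0.022, ALAS1 A_24_P191588 from -0.048 to 0.10, ALAD A_23_P324278 from -0.14 to 0.17 and UROS from -0.0096 to 0.23. The same range was -0.41 to 0.70 and -0.40 to 0.67 for the ALAS2 probes, -0.14 to 0.22 for PPOX A_23_P201400 and -0.00046 to 0.22 for PPOX A_24_P102726, each end being 1 clone alone. Why counts moved with background or moderation was not tested.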
